A study of Homo sapiens with 6 samples.

Results

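snoRNA host genes carry small nucleolar RNAs inside their introns. They were taken here as every gene whose name in the count table is SNHG followed by a number, together with GAS5, ZFAS1 and EPB41L4A-AS1. The rule found 28 of the 58735 genes in the table. The RNA came from SY5Y, an established human neuroblastoma cell line, with 3 libraries labelled DLX5 overexpression and 3 labelled control. DLX5 is a homeobox transcription factor. The libraries differ by genotype label alone and share the same culture medium, with no time or dose given. The vector, the selection and whether the overexpressing line is 1 clone are not given in the sources used here, nor is it stated what the control cells carry. Nothing in the labels ties the replicates to separate cultures. The p-values therefore describe the spread among 6 libraries, and that spread may be technical.

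Small nucleolar RNAs (snoRNAs) guide chemical modification of ribosomal RNA. Box C/D snoRNAs direct ribose methylation and box H/ACA snoRNAs direct pseudouridylation, and the related scaRNAs act on spliceosomal RNAs in Cajal bodies. The snoRNA is cut out of the intron after splicing, and the spliced exons remain as a separate RNA. In GAS5 and several other hosts these exons hold no long reading frame, and the RNA is translated briefly and degraded by nonsense-mediated decay. Many hosts start with a C followed by a run of pyrimidines, the same start (a 5′ terminal oligopyrimidine tract) that ribosomal protein genes use.

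That start can be read in the annotated transcripts. In GENCODE 29, 31 of the 239 transcripts (13%) of the 23 host genes that could be tested open with a C and at least 4 further C or T letters, against 3573 of 137181 transcripts (2.6%) of all genes tested. Counted by gene, 13 of the 23 host genes (56.5%) had at least 1 such transcript, against 14 of 17 ribosomal protein genes with intronic snoRNAs (82.4%) and 15.2% of all genes tested. This counts a gene on any of its transcripts, for SNHG1 on 1 of 25. At the single RefSeq start of each gene the share was lower, 6 of the 20 host genes with one, against 4.07% of 35116 windows. For 6 of the 13 host genes, the first 30 bases of 1 such GENCODE transcript are shown, on GRCh38. These genes are shown because they differ in what happened to them. GAS5 and SNHG16 have no such run at their RefSeq start. The capitals mark the unbroken run of C and T from the first base, a description of letters and not a mapped start in these cells.
GAS5: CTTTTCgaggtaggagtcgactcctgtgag
SNHG16: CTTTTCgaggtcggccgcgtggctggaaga
SNHG19: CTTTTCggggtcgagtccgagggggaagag
SNHG5: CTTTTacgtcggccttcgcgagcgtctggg
ZFAS1: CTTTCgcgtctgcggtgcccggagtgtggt
SNHG4: CCTTTCCCCTCCggcctctgccggtgctgc
The GAS5 stretch lies at chr1:173867960-173867989 on the minus strand, that of SNHG16 at chr17:76557769-76557798 on the plus strand and that of SNHG19 at chr16:2155329-2155358 on the minus strand. The SNHG5 stretch lies at chr6:85678704-85678733 on the minus strand, that of ZFAS1 at chr20:49278642-49278671 and that of SNHG4 at chr5:139274102-139274131, both on the plus strand. GAS5, SNHG16 and SNHG19 share the same capitals. GAS5 and ZFAS1 were lower with DLX5, SNHG5 was higher and SNHG16 and SNHG19 did not pass the test.

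Each library had between 14644077 and 16886026 counts. The DLX5 libraries held 1582, 1569 and 1677 CPM of DLX5 (read counts scaled to a common library size with TMM factors), against 12.4, 12.3 and 13.8 CPM in control, so no label was contradicted. The 6 sympathetic neuroblastoma markers, among them HAND2 and DBH, were all expressed. All 6 fell, where 28.8% of all genes tested were called lower. Their summed level was 1481 to 1604 CPM in the DLX5 libraries and 3690 to 4088 CPM in the controls. Of 5 fibroblast markers 4 rose, where 29.8% of all genes tested were called higher, and PDGFRA did not pass. Summed over all 5, the DLX5 libraries had 287 to 299 CPM and the controls 161 to 167 CPM. Epithelial markers summed to 6.80 to 7.06 CPM with DLX5, against 3.60 to 5.03 CPM in control, but did not move together. CDH1 rose by 3.68 on the log2 scale, KRT19 fell by 3.68 and EPCAM did not pass. Endothelial markers summed to 1.36 to 1.80 CPM with DLX5, against 0.360 to 0.792 CPM in control. The 3 blood markers summed to 0.670 to 1.08 CPM with DLX5 and 0.360 to 0.974 CPM in control, and among them CD3E had no count in any library. The part of these shifts in the results on the host genes was not tested.

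Of the 28 host genes, 23 passed the filter on low counts. With DLX5, 13 of the 23 were lower and 3 higher (edgeR quasi-likelihood test, Benjamini-Hochberg adjusted p under 0.05 over all 17269 genes tested), and 7 did not pass. Of the 3 higher, SNHG18 and SNHG28 passed the filter through the DLX5 libraries alone, so a difference was built into their selection. Over all genes tested 28.8% were called lower and 29.8% higher, 58.6% in either direction. At an adjusted p under 0.01, 11 were lower and 3 higher, where 48.6% of all genes tested were called. The median log2 fold change of the 23 was -0.35, against -0.00 over all genes tested. None of the 13 fell by as much as 2-fold, where 5.18% of all genes tested did, beside 11.3% that rose by as much (16.4% together). In 14 of the 23 all 3 DLX5 libraries lay below all 3 controls and in 4 they lay above, against 30.8% and 31.7% of all genes tested, 62.5% in either direction. At 5 CPM or more, 13 of 19 host genes (68.4%) were lower and 1 higher with a median of -0.36, against 118 (32.5%) lower and 80 higher of 363 other long noncoding genes, with a median of -0.09. In bulk RNA, fewer cells that express a gene and less of its RNA per cell cannot be told apart.

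**Figure D1:**
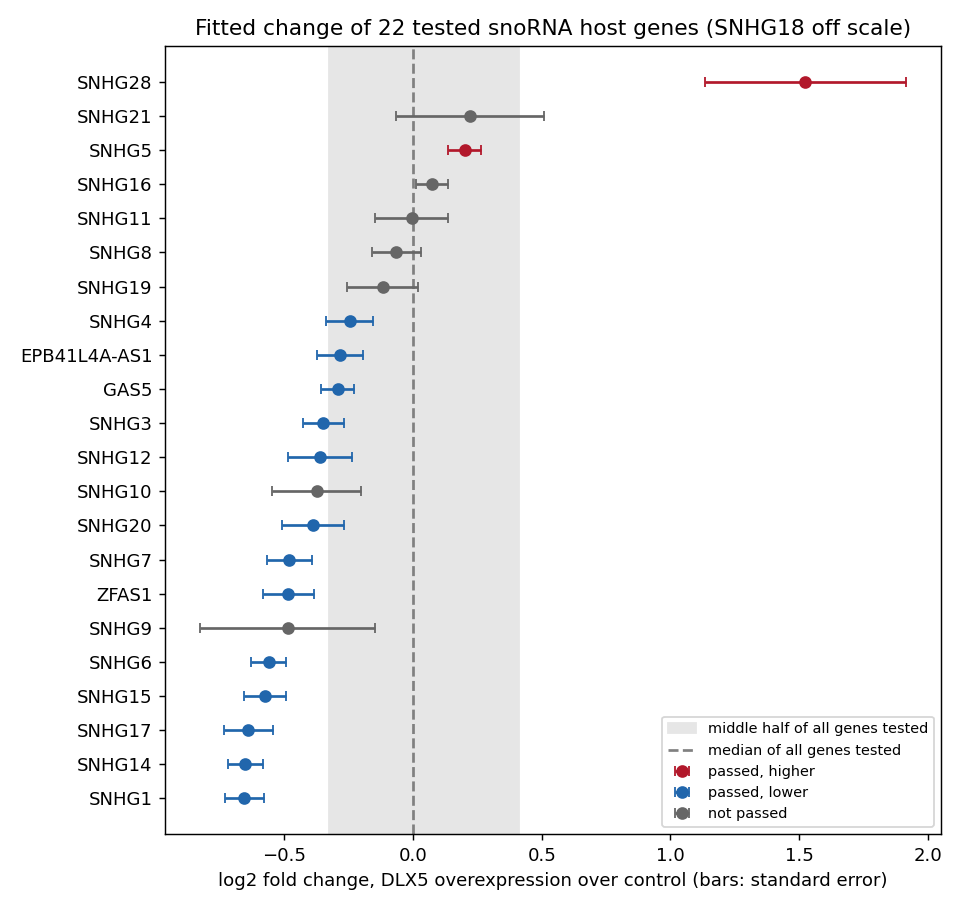
Fitted log2 fold change (x axis, DLX5 overexpression over control) with its standard error for 22 tested snoRNA host genes, ordered by change. The grey band runs from the lower to the upper quartile of all genes tested (-0.33 to 0.41) and the dashed line their median; 13 genes passed lower, SNHG28 and SNHG5 passed higher, and SNHG18 is off scale.

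The hosts of box C/D snoRNAs included both the most abundant member and the only abundant one that rose. GAS5 (ENSG00000234741, chromosome 1, 173863900 to 173868882, minus strand), known for accumulating in growth-arrested cells, held 177, 171 and 169 CPM with DLX5 and 211, 231 and 193 CPM in control. The groups did not overlap, and its log2 fold change was -0.29 ± 0.06 (standard error, edgeR, adjusted p = 0.000326), a fall of 18.4%. Within its span RefSeq (GRCh38.p14) lists 10 C/D snoRNAs and 1 H/ACA snoRNA. Its share of the counts of all host genes barely moved, at 21.4% ± 0.850 with DLX5 and 21.7% ± 0.777 in control (SD, n = 3).

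SNHG1 (ENSG00000255717, chromosome 11, 62851988 to 62855914, minus strand), in whose span RefSeq lists 8 C/D snoRNAs, had the lowest log2 fold change of the 23. It held 46.3, 45.6 and 43.9 CPM with DLX5 and 64.5, 78.4 and 70.8 CPM in control, a log2 fold change of -0.66 ± 0.07 (standard error, edgeR, adjusted p = 2.71e-08). The DLX5 libraries lay close together and below the lowest control.

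SNHG14 (ENSG00000224078, chromosome 15, 24978583 to 25419462, plus strand) is the long host of the imprinted Prader-Willi region, with 83 C/D snoRNAs in its span, and it runs antisense to UBE3A. It held 45.6, 43.6 and 42.9 CPM with DLX5 and 66.3, 70.4 and 70.9 CPM in control. Its fall of 36.4% was close to that of SNHG1, with a log2 fold change of -0.65 ± 0.07 (standard error, edgeR, adjusted p = 6.75e-09). On log2(FPKM + 1) values, a scale that understates the change of genes low per base, it was -0.36.

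SNHG6 (ENSG00000245910, chromosome 8, 66921684 to 66926398, minus strand) held 43.8, 46.6 and 47.7 CPM with DLX5 and 68.4, 69.8 and 65.5 CPM in control. The groups were well apart, and the gene fell by 0.56 ± 0.07 on the log2 scale (standard error, edgeR, adjusted p = 9.98e-08).

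ZFAS1 (ENSG00000177410, chromosome 20, 49278178 to 49295738, plus strand), the host of the SNORD12 family, held 19.2, 17.2 and 18.4 CPM with DLX5 and 22.045, 28.7 and 25.9 CPM in control. The highest DLX5 library stayed below the lowest control. The log2 fold change was -0.49 ± 0.10 (standard error, edgeR, adjusted p = 0.000150).

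**Figure D2:**
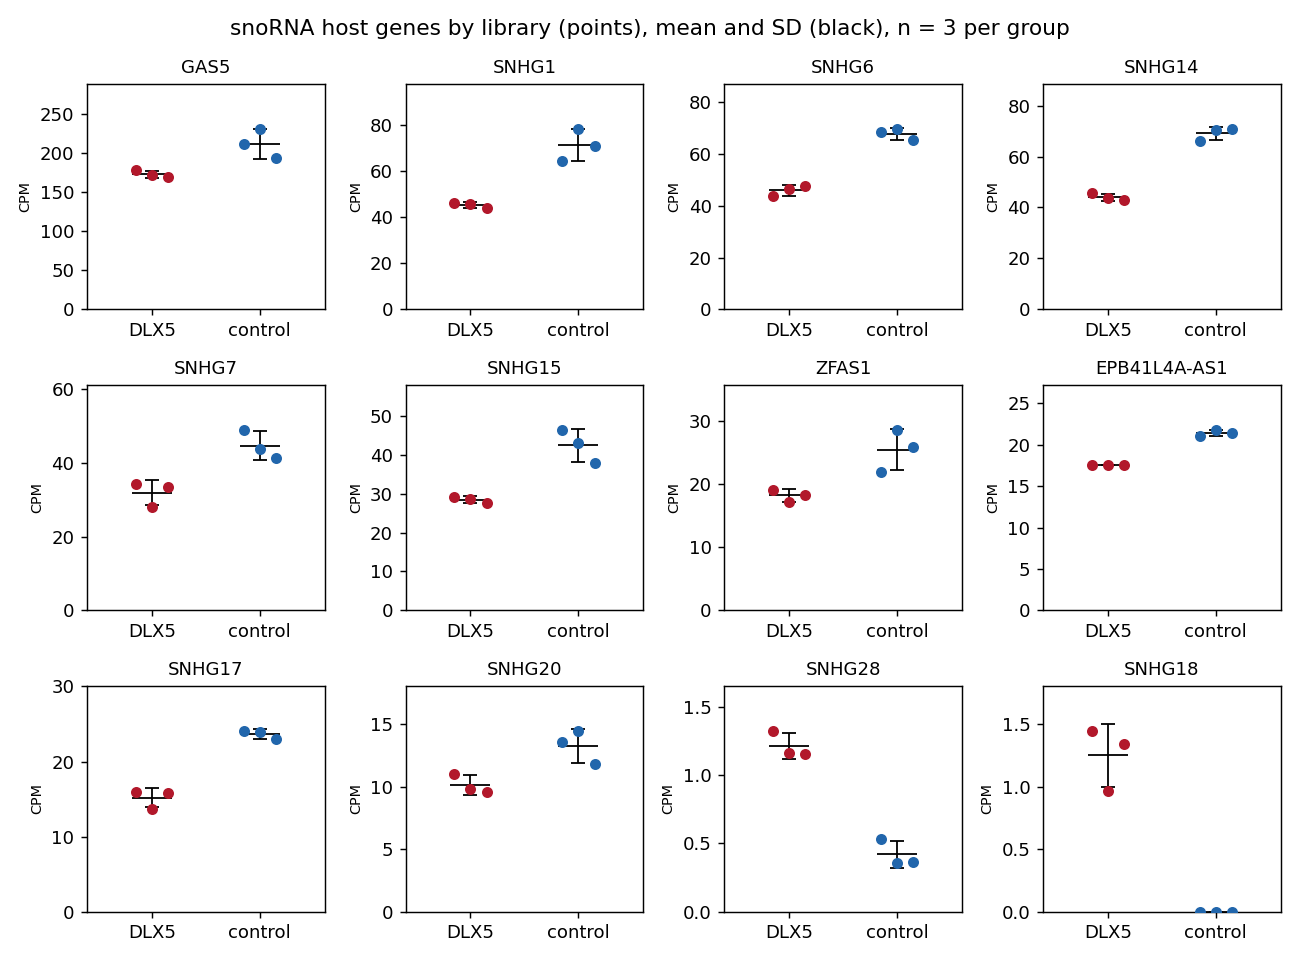
CPM (y axis, from 0) of 12 host genes in each library, with the mean and SD of 3 libraries in black, DLX5 overexpression on the left and control on the right. In 10 panels every DLX5 library lies below every control; in SNHG28 and SNHG18 every DLX5 library lies above.

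SNHG5 (ENSG00000203875, chromosome 6, 85660950 to 85678748, minus strand), the host of the SNORD50 pair, went the other way. It held 128, 129 and 135 CPM with DLX5 and 117, 120 and 104 CPM in control, so the groups did not overlap. The rise was 14.9%, a log2 fold change of 0.20 ± 0.06 (standard error, edgeR, adjusted p = 0.00873). The call was lost without control replicate 3, the lowest control (0.14, adjusted p = 0.0875), and with library totals in place of scaling factors (0.13, adjusted p = 0.0723). Of the summed counts of all host genes, its own included, SNHG5 made up 15.7%, 16.6% and 16.4% with DLX5 and 12.0%, 11.8% and 11.4% in control. This share moves with the fall of the other host genes as well as with SNHG5.

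SNHG16 (ENSG00000163597) was the third most abundant host gene in CPM, at 87.5 ± 1.53 CPM with DLX5 and 83.1 ± 3.15 CPM in control (SD, n = 3). The change of 0.08 ± 0.06 on the log2 scale (standard error) did not pass (edgeR, adjusted p = 0.314), although its 3 DLX5 libraries lay just above the 3 controls. SNHG19, at 11.4 CPM with DLX5 and 12.4 CPM in control, did not pass either, and its libraries overlapped.

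Hosts of box H/ACA snoRNAs were lower or did not pass, and none was called higher. SNHG17 (ENSG00000196756, chromosome 20, 38420588 to 38435353, minus strand), the host of the SNORA71 family, held 16.0, 13.7 and 15.8 CPM with DLX5 and 24.1, 24.0 and 23.0 CPM in control. The groups were far apart, with a log2 fold change of -0.64 ± 0.10 (standard error, edgeR, adjusted p = 2.10e-06). SNHG15 (ENSG00000232956, chromosome 7, 44983023 to 44986961, minus strand) held 29.2, 28.7 and 27.5 CPM with DLX5 and 46.3, 43.0 and 37.9 CPM in control, and fell by 0.58 ± 0.08 on the log2 scale (standard error, edgeR, adjusted p = 1.37e-06). The spread among its controls was larger than among its DLX5 libraries.

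SNHG7 (ENSG00000233016, chromosome 9, 136721366 to 136728184, minus strand) held 34.3, 27.96 and 33.5 CPM with DLX5 and 48.9, 43.8 and 41.3 CPM in control, a log2 fold change of -0.48 ± 0.09 (standard error, edgeR, adjusted p = 3.11e-05). EPB41L4A-AS1 (ENSG00000224032, chromosome 5, 112160526 to 112164276, plus strand), which hosts SNORA13, held 17.6 CPM in every DLX5 library and 21.0, 21.8 and 21.4 CPM in control. The groups did not overlap, and it fell by 0.28 ± 0.09 (standard error, edgeR, adjusted p = 0.00894).

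SNHG3, the host of SNORA73B, was at 49.5 ± 5.41 CPM with DLX5 and 63.0 ± 4.08 CPM in control (SD, n = 3), a log2 fold change of -0.35 ± 0.08 (standard error, edgeR, adjusted p = 0.000454). SNHG4 and SNHG12 were lower by less secure margins. SNHG4 was at 21.2 ± 1.10 CPM with DLX5 and 25.2 ± 2.22 CPM in control (SD, n = 3; log2 fold change -0.25, edgeR adjusted p = 0.0237), and lost its call without DLX5 overexpression replicate 2 (adjusted p = 0.0946), control replicate 2 (adjusted p = 0.111) or control replicate 3 (adjusted p = 0.0536). SNHG12 held 12.0, 11.8 and 17.5 CPM with DLX5 and 17.6, 17.9 and 17.6 CPM in control (log2 fold change -0.36, edgeR adjusted p = 0.0140). Its DLX5 replicate 3 lay at the level of the controls: without it the log2 fold change was -0.57, while the call was lost without replicate 1 (adjusted p = 0.101) or 2 (adjusted p = 0.0905) of the DLX5 libraries.

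SNHG8 and SNHG11 overlapped between groups, at 39.4 ± 4.95 and 12.2 ± 2.69 CPM with DLX5 and 41.3 ± 5.74 and 12.3 ± 1.94 CPM in control (SD, n = 3). SNHG9 had 12 to 15 counts per DLX5 library and 17 to 20 per control and did not pass (log2 fold change -0.49, standard error 0.34), though it passed on log2(FPKM + 1) values (adjusted p = 0.0196) and on log2(FPKM + 0.1) values (adjusted p = 0.0231).

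Of the 3 tested hosts of scaRNAs, SNHG20 was lower, with 11.01, 9.81 and 9.56 CPM with DLX5 and 13.5, 14.4 and 11.8 CPM in control. Its log2 fold change was -0.39 ± 0.12 (standard error, edgeR, adjusted p = 0.00719). SNHG10, at 6.80, 4.84 and 7.91 CPM with DLX5 and 10.8, 7.19 and 7.55 CPM in control, overlapped between groups and narrowly missed the threshold (log2 fold change -0.37, edgeR adjusted p = 0.0675). SNHG21 held 26 to 35 counts per DLX5 library and 19 to 31 per control and did not pass. By class of snoRNA, 5 of 9 C/D hosts were lower and 2 higher with a median of -0.29, 7 of 10 H/ACA hosts were lower and 0 higher with a median of -0.36, and whether the classes differ was not tested. Of the 13 host genes with a pyrimidine start 7 were lower and 2 higher, and of the 10 without one 6 were lower and 1 higher. The higher counts include SNHG18, a C/D host with a pyrimidine start, and SNHG28, which has none. Both passed the filter through the DLX5 libraries alone, so they are a description. Over all genes tested the shares are 28.8% lower and 29.8% higher.

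SNHG18, SNHG26 and SNHG28 stood at trace levels in control. SNHG18 (ENSG00000250786, chromosome 5, 9546200 to 9550609, plus strand) had 24, 15 and 22 counts in the DLX5 libraries and 0 in all 3 controls. It passed the filter through the DLX5 libraries alone, and against a floor of 3 counts over the control group it was at least 20.1-fold higher. The SNHG28 entry ENSG00000256029 had 22, 18 and 19 counts with DLX5 and 8, 6 and 6 in control, a ratio of 2.92 with a 95% exact binomial interval of 1.73 to 5.12 for counting error only. It too passed the filter through the DLX5 libraries alone, so the calls of both genes are given as a description. A second SNHG28 entry, ENSG00000188004, overlaps it and had no count, so reads of the shared stretch cannot be assigned to either with certainty. AL590560.1, which overlaps SNHG28 on the other strand and holds 423 counts against its 79, was also higher (log2 fold change 1.03, edgeR adjusted p = 3.94e-05).

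The remaining host genes were below the filter. SNHG26 had 8, 10 and 8 counts with DLX5 and 1, 0 and 0 in control, a ratio of 25.7 with a 95% exact binomial interval of 4.23 to 1055 that covers counting error only. SNHG25 had 13 counts over the DLX5 libraries and 13 over the controls, and SNHG22 had 9 and 12. SNHG27 had no count in any library.

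Added together, the 28 host genes gave 817, 779 and 828 CPM with DLX5 and 981, 1018.5 and 916 CPM in control. All DLX5 sums lay below all control sums, and they averaged 808 ± 25.5 CPM with DLX5, against 972 ± 52.0 CPM in control (SD, n = 3), a decrease of 16.9%. Leaving out SNHG5, they averaged 677 ± 23.4 CPM with DLX5, against 858 ± 43.9 CPM in control. In the authors' FPKM, which divide by gene length, the sum was 301 ± 16.8 with DLX5 and 354 ± 23.4 in control. On that scale the order of levels was GAS5 (47.1 FPKM with DLX5 and 57.8 in control), SNHG6 (36.6 and 54.0), SNHG8 (42.3 and 44.4) and SNHG5 (46.2 and 40.3), averaged over all libraries. SNHG14 stood at only 1.01 FPKM with DLX5 and 1.58 FPKM in control.

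**Figure D3:**
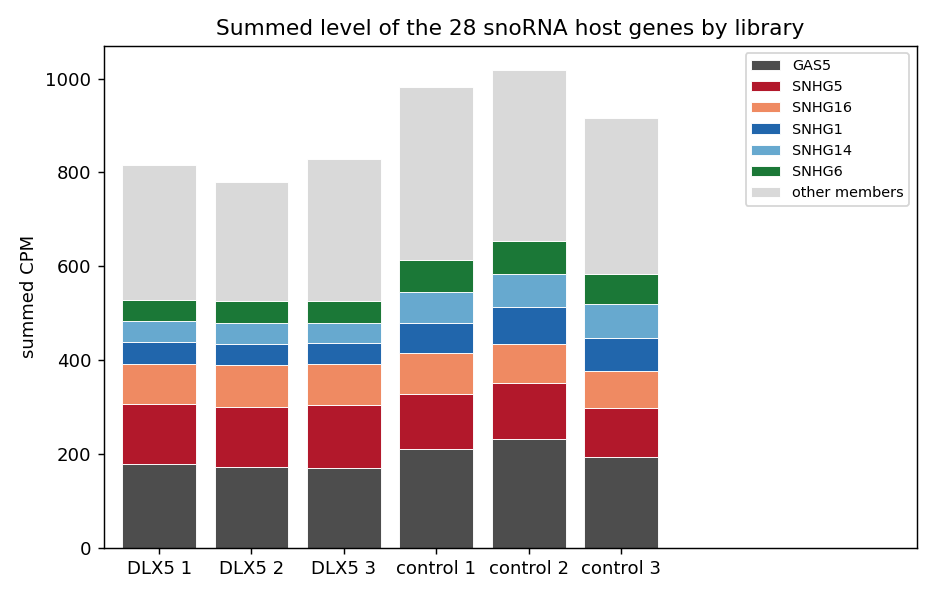
Summed CPM (y axis, from 0) of the 28 host genes in each of the 6 libraries, stacked by gene. The DLX5 libraries total 779 to 828 CPM and the controls 916 to 1018.5 CPM, while the SNHG5 segment is larger in the DLX5 libraries.

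The snoRNA genes themselves had few counts. Within the host spans the table lists 136 snoRNA and scaRNA genes on the same strand, 33 of them with any count, and their summed counts were 115, 89 and 120 with DLX5 and 125, 132 and 170 in control. All 44 that lie in an annotated exon of their host had 0 counts in every library, and the 33 with counts were among the 92 that lie in introns only. A 0 at an exonic snoRNA gene is therefore not read as its level. The table lists none inside GAS5. Only 4 passed the filter. SNORA71B, inside SNHG17, had 7, 6 and 5 counts with DLX5 and 13, 20 and 16 in control. It passed the filter through the controls alone, so these counts are a description, with no test. Its neighbour in the same host, SNORA71C, had 13, 11 and 11 counts with DLX5 and 6, 13 and 12 in control and did not pass. SNORD104 in SNHG25 and SNORA73B in SNHG3 did not pass either. At these counts smaller differences were not detectable, and reads of a snoRNA cannot be told apart from those of unspliced host RNA.

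Of the ZFAS1 snoRNAs, SNORD12C and SNORD12B had counts that leaned opposite ways on a handful of reads. SNORD12C had 11, 4 and 1 counts with DLX5 and 0, 0 and 1 in control, and SNORD12B had 4, 4 and 4 with DLX5 and 11, 6 and 5 in control. Neither could be tested, and for SNORD12C 1 library supplied most reads. The ratio of SNORD12B was 0.54, with a 95% exact binomial interval of 0.24 to 1.14 for counting error only. That interval includes no change. For SNORD12C the ratio was 15.8 (2.46 to 664), again for counting error only. That interval leaves out the spread among its DLX5 libraries, at 11, 4 and 1 counts. Their sequences, with that of SNORD50B from SNHG5, the host that rose, show the boxes that define the class, with the C box core TGATGA and the D box CTGA in capitals.
SNORD12C: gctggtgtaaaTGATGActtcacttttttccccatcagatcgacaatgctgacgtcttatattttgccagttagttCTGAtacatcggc
SNORD12B: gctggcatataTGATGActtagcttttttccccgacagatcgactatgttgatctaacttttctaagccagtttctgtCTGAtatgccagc
SNORD50B: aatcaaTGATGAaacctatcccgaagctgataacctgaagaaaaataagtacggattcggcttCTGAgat
On GRCh38, SNORD12C lies at chr20:49278940-49279028 and SNORD12B at chr20:49280319-49280409, both on the plus strand, and SNORD50B at chr6:85677589-85677658 on the minus strand. SNORD50B lies in an annotated exon of SNHG5 and is listed at 0 counts, so its level could not be read.

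Many host genes lie across or back to back with a protein-coding gene, and no source used here states a strand for the counting. To which gene, if any, reads in shared exons were counted is therefore not known. By whole gene spans, introns included, 12 of the 23 tested host genes are overlapped by a gene with at least 10% as many counts. For 8 the overlapping gene has at least as many, for SNHG12 through an overlap of 8 bases with TRNAU1AP. The overlap of exons was not measured. SNHG18 starts 125 bases from SEMA5A, a semaphorin gene for axon guidance on the other strand. SEMA5A (ENSG00000112902) held 509, 508 and 492 CPM with DLX5 and 42.7, 41.2 and 45.7 CPM in control, a log2 fold change of 3.54 ± 0.07 (standard error, edgeR, adjusted p = 1.14e-24). Both genes of this pair were therefore higher in every DLX5 library. The window of 300 bases around the SNHG18 start (RefSeq, GRCh38.p14, chr5:9545950-9546249, SNHG18 strand) holds both starts and is shown for that reason, with the 22-base run of C and T at the SNHG18 start in capitals.
SNHG18: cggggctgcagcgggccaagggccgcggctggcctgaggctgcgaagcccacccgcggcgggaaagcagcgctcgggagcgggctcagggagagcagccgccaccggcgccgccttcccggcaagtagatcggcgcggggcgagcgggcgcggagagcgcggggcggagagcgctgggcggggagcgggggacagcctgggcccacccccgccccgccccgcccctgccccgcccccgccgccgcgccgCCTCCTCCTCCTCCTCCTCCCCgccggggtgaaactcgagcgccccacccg
The homeodomain core TAATTA, which reads the same on both strands, is not among the letters of this window. RefSeq gives such windows for 20 of the tested host genes by name, and 1 of them (5.0%) holds TAATTA, that of SNHG10, against 4.84% of 35116 windows of the same length. The E-box CACGTG, also the same on both strands and the letters MYC proteins bind, is in 1 of the 20, that of SNHG7, against 7.26% of all windows.

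Several other neighbours were lower. SLC3A2, an amino acid transporter chain whose start lies 188 bases from that of SNHG1, was at 70.8 ± 5.08 CPM with DLX5 and 83.9 ± 4.33 CPM in control (SD, n = 3; log2 fold change -0.24, edgeR adjusted p = 0.00344). RCC1, whose transcripts run over SNHG3 on the same strand, fell by 0.37 (edgeR, adjusted p = 1.23e-05) beside a fall of 0.35 for SNHG3. GLRX5, which overlaps SNHG10 and holds 717% of its counts, fell by 0.39 (edgeR, adjusted p = 7.47e-05), while SNHG10 itself did not pass. UBE3A, antisense to SNHG14, fell by 0.24 (edgeR, adjusted p = 0.00208).

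In 3 loci the host gene and a neighbour went opposite ways. ZFAS1 fell by 0.49 while ZNFX1, an antiviral helicase gene whose start lies 248 bases away on the other strand, rose to 53.9 ± 0.0955 CPM with DLX5, against 29.7 ± 1.99 CPM in control (SD, n = 3; log2 fold change 0.86, edgeR adjusted p = 2.17e-10). EPB41L4A, which spans EPB41L4A-AS1 on the other strand, held 7.94, 9.10 and 7.97 CPM with DLX5 and 4.09, 3.36 and 3.35 CPM in control. It rose by 1.21 (edgeR, adjusted p = 3.09e-07). SIL1, a co-chaperone gene that spans SNHG4, rose by 0.69 (edgeR, adjusted p = 2.39e-06). ZBTB37, which overlaps the start of GAS5, did not pass, at 39.1 CPM with DLX5 and 38.6 CPM in control.

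**Figure D4:**
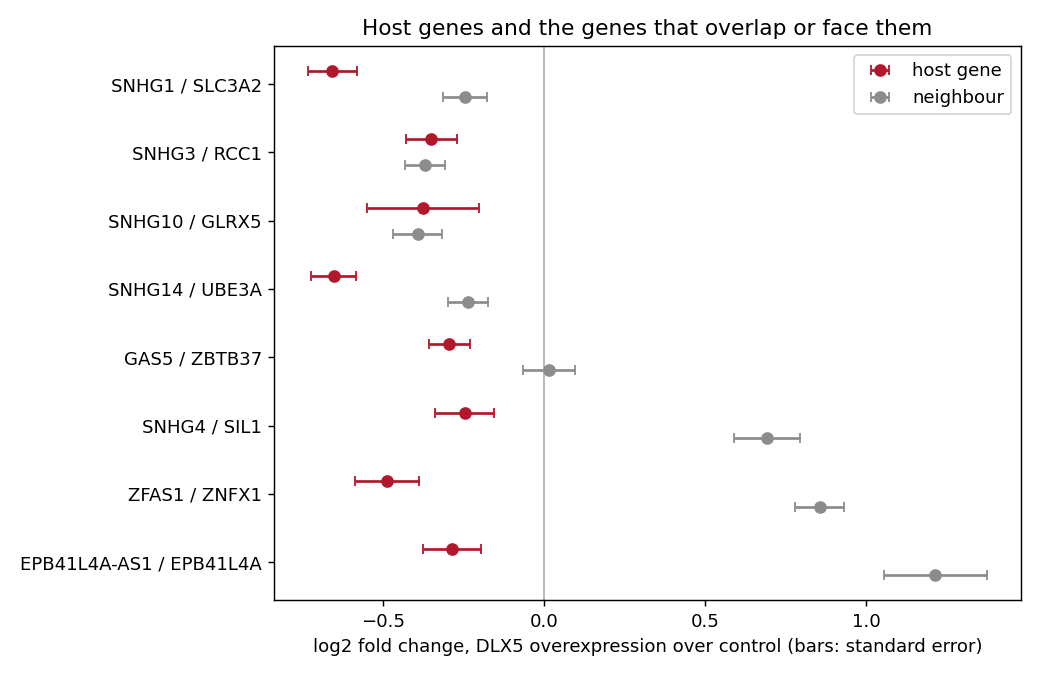
Log2 fold change (x axis, DLX5 overexpression over control) with its standard error of host genes and of some of the genes that overlap or face them. In the lower 3 pairs the host gene lies below 0 and its neighbour above; SNHG18 and SEMA5A are left out for scale.

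Genes that share the snoRNA trade with the hosts were counted from lists, beside 28.8% lower and 29.8% higher over all genes tested. Of 17 ribosomal protein genes with intronic snoRNAs 17 were lower and 0 higher, with a median log2 fold change of -0.31, and RPL7A fell by 0.47 and RPL13 by 0.45. Among all genes at 5 CPM or more, 34.2% were lower and 31.7% higher. RPL17 was the lowest of the list, at 8.06 CPM with DLX5 and 11.4 CPM in control. The next lowest in level, RPL23A, was at 265 CPM with DLX5 and 326 CPM in control. Whether the few RPL17 counts give its full level was not tested. Reads these ribosomal protein genes share with processed pseudogenes were not measured. Of 17 other protein-coding hosts 9 were lower and 1 higher, with a median of -0.24. The chaperone HSPA8 fell by 1.12, the nucleolar protein NCL by 0.67, NOP56 by 0.65 and the mitochondrial import receptor TOMM20 by 0.54.

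The proteins that assemble around snoRNAs were also counted against 28.8% lower over all genes tested (34.2% at 5 CPM or more). NOP56 and DKC1 are also among the other protein-coding hosts above, so their falls are counted there too. For box C/D, 7 of 11 fell and 1 rose, with a median of -0.39: the core protein NOP56 went to 104 CPM with DLX5, against 163 CPM in control, and the helicase RUVBL1 fell by 0.53, the methyltransferase FBL by 0.48 and RUVBL2 by 0.41. ZNHIT6, an assembly factor, rose by 0.37. For box H/ACA, 5 of 6 fell and 0 rose, with a median of -0.38. The pseudouridine synthase DKC1 fell by 0.49, NHP2 by 0.43, NOP10 by 0.35 and NAF1 by 0.41.

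Factors of nonsense-mediated decay, the route that degrades several spliced host RNAs, went both ways. Of 10 tested 1 rose, 2 fell and 7 missed the threshold, and their median was -0.04. Both shares are below those over all genes tested, 29.8% higher and 28.8% lower. The kinase SMG1, whose reads may be shared with near-identical pseudogene copies, rose by 0.46. SMG8 fell by 0.26, and the central helicase UPF1 was among those 7, at 180 CPM with DLX5 and 188 CPM in control. Among 6 messages known to be sensitive to this decay 4 rose and 1 fell, where 58.6% of all genes tested were called in either direction. GADD45B rose by 3.59, ATF3 by 0.65, UPP1 by 0.62 and GADD45A by 0.19, while ATF4 fell by 0.34.

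**Figure D5:**
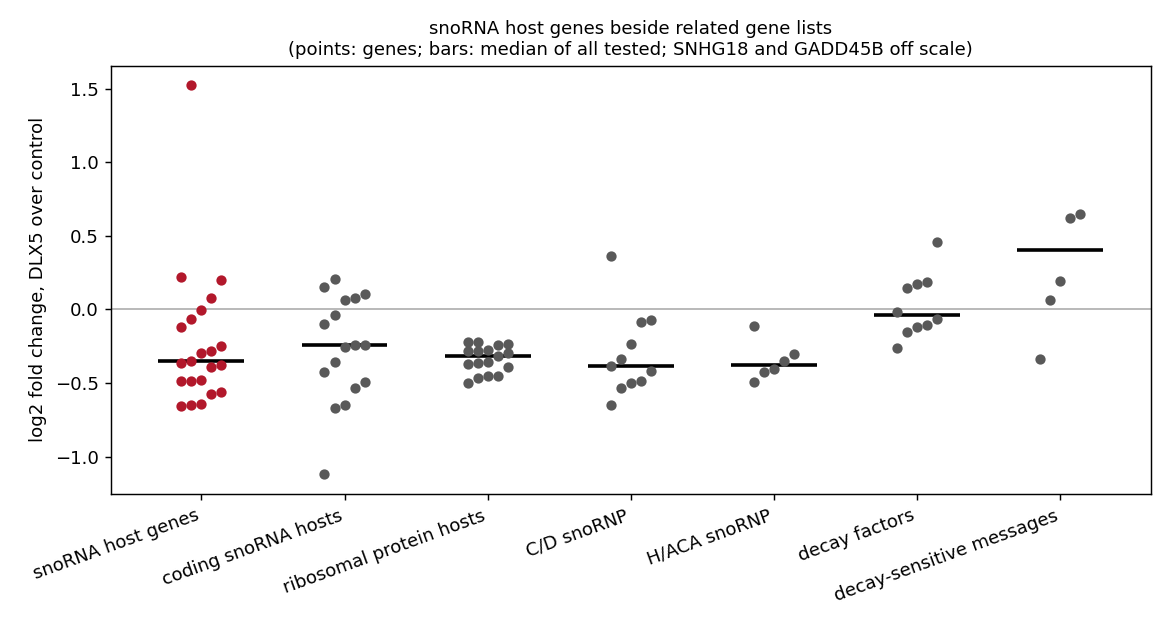
Log2 fold change (y axis, DLX5 overexpression over control) of each tested gene in the snoRNA host set and 6 related lists, with the median of all tested members as a bar. The medians of the host genes, the ribosomal protein hosts and both snoRNP lists lie between -0.31 and -0.39; SNHG18 and GADD45B are off scale.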

How the data were processed

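The deposited values are whole-number counts per gene and FPKM made by the authors. The submitters' processing notes list HISAT2 2.0.5, featureCounts 1.5.0-p3 and the build hg19, without settings or strand. However, all 58735 genes have the starts, ends and strands of GENCODE 29 on GRCh38, so coordinates are GRCh38. Counts were fitted with edgeR 4.0.16 in R 4.3.3 (filterByExpr, TMM, quasi-likelihood test, two-sided, Benjamini-Hochberg over 17269 genes, 3 libraries against 3, no covariate). The biological coefficient of variation was 6.17%. The standard error is the change over the square root of F. An exact permutation of 3 against 3 has 0.1 as its smallest p, so significance comes from the fit across genes. The test was run on simulated counts with 200 changed genes and a common dispersion. There it called 28% of 1.25-fold changes, 70% of 1.5-fold changes and 0.066% of unchanged genes. Far more genes were called in the real data, so this does not check the scaling there. Libraries of 1 group differed by 2.32 to 5.52 times sampling noise (chi-square over degrees of freedom), so none was taken for a copy.

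All tested host genes are named. Library values are given for GAS5, ZFAS1, EPB41L4A-AS1, SNHG1 and the 10 called members with the largest change, and SNHG5, SNHG10 and SNHG12 were added after their values were seen, as was the count of transcript starts. The members and lists were chosen with earlier results of these data known. Alternatives were RLE, upper-quartile and no scaling factors, DESeq2 1.42.0, limma-voom and limma 3.58.1 on log2(FPKM + 1) and log2(FPKM + 0.1), other filters and thresholds, a replicate block and each library left out. Figures were drawn with matplotlib 3.10.9. Some genes of the related lists and some overlapping genes that the naming rule covers are not reported here.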

Additional observations from a re-analysis of the deposited data

How the results depend on the processing

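The number of host genes called lower (13) lay between 11 and 14 with each library left out and, under the other settings, went to 0 only where a 2-fold change was required. That setting also left 1 related-list gene higher and 1 lower. The number called higher (3) lay between 2 and 4. The median log2 fold change stayed between -0.42 and -0.26, and the ratio of summed levels (0.831) between 0.794 and 0.852. Of 23 single host genes, calls were lost for SNHG5, SNHG4 and SNHG12 and gained for SNHG10 and SNHG9 under some settings; SNHG8 and SNHG11, not called, changed sign when 1 library was left out. SNHG10 passed with the replicate block (log2 fold change -0.38, adjusted p = 0.0376), with upper-quartile factors (0.046), without a filter (0.0377), without DLX5 overexpression replicate 3 (0.0173) and without control replicate 2 (0.0351), as well as with library totals (0.0348). SNHG12 lost its call in limma with FPKM, at an adjusted p of 0.0568 with a pseudocount of 1 and of 0.0544 with 0.1. The causes were not tested. Whether the replicate numbers pair the libraries is not stated. Deviations of same-numbered libraries correlated at 0.00688, 0.0944 and -0.0399, and those of differently numbered libraries at between -0.0964 and 0.0976. Such weak correlations cannot show that the libraries were not prepared in pairs. With the replicate block 14 host genes were lower and 3 higher. Library totals were added as an alternative after the data were seen. Host genes under about 1 CPM rest on few counts, so smaller changes there were not detectable.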
